A study of Mus musculus with 6 samples.

Results

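Monocyte-derived and dendritic cells of the mouse sciatic nerve were 332 of the 50973 cells kept in 5 single-cell RNA libraries, and 332 of the 3978 kept cells with a unique molecular identifier (UMI) of the pan-leukocyte gene Ptprc. They are called mono/DCs here and were chosen by the genes seen in each cell. A mono/DC had at least 1 UMI of Ptprc, UMIs of at least 2 of the 5 markers Cd209a, Ccr2, Flt3, Napsa and Plbd1, and at most 1 of the 3 complement genes C1qa, C1qb and C1qc. It had no UMI of Cd3e, Cd3d, Cd79a, Sox10, Pdgfra or Cdh5, which mark T cells, B cells, Schwann cells, mesenchymal cells and endothelium. They were set against C1q macrophages, the 2444 Ptprc-positive cells with at least 2 of the 3 C1q genes and the same 6 genes absent. These 15 genes fix the classes, so their levels are a description and carry no test.

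The nerves came from C57BL/6 mice without a further allele or treatment, at postnatal days 0, 7, 14, 28 and 60 (P0 to P60), the ages over which Remak bundles of unmyelinated axons form. Each age was 1 library of pooled nerves from 12 males and 10 females at P0, 10 males and 11 females at P7, 10 males and 8 females at P14, 9 males and 6 females at P28, and 5 males and 8 females at P60. The sample labels name the whole nerve's cells as Schwann cells and glia; the labels give no sort for immune cells. Each age being a single library, values were not replicated within an age, ages carry no p-value, and 95% intervals cover counting error only. The libraries of 2 ages went against their labels on sex: Xist, the RNA of the inactive X chromosome, stood at 452, 894 and 479 CPM (the UMIs of a gene per 1e6 UMIs of the cells summed) over all kept cells at P0, P7 and P14 but at 0.515 at P28 and 0.275 at P60, although females were pooled there. Xist was seen in 67 of 155 mono/DCs at P14 and in 1 of 148 at P60, so sex and age cannot be told apart between these libraries. The whole libraries held between 60763221 and 101441907 UMIs, and a kept cell had a median of 3463 to 7960.5 UMIs across the ages. Of the 50727 different barcodes of kept cells, 246 occurred in more than 1 library. No barcode was shared between mono/DCs of different ages, and 6 mono/DC barcodes were also kept in another library.

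Dendritic cells take up antigen, load peptides onto major histocompatibility complex (MHC) class II molecules and carry them to lymph nodes. Type 1 conventional dendritic cells depend on Batf3 and Irf8 and present antigen from dead cells to CD8 T cells, type 2 cells are marked by lectins such as Cd209a and Clec10a, and both arise from precursors that bear the receptor Flt3. Classical monocytes leave the marrow through the chemokine receptor Ccr2 and turn into macrophage-like or dendritic-like cells in tissue, whereas resident nerve macrophages that bear C1q and Mrc1 largely maintain themselves.

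The promoters of class II genes are shown here because the results below set these genes in mono/DCs against macrophages age by age. Of the 10 class II genes followed, 7 had promoters in the RefSeq table for GRCm38.p6, which spans 250 bases before to 50 bases after a gene's start. The letters TGATTGG, the core of the Y box (an inverted CCAAT box bound by NF-Y in class II promoters), were present on the sense strand in 6 of these 7, and not in either window of H2-DMa. On either strand the letters occurred in a promoter of 2431 of all 27025 genes, or 9.0%, and in 2568 of all 32851 promoters, or 7.82%. Each sequence below runs 5′ to 3′ on the gene's strand and holds 50 bases before the core, the core in capitals and 20 bases after it. The window of H2-Aa is chr17:34287847-34287923 on the minus strand. The others are on the plus strand, at chr17:34305756-34305832 for H2-Eb1, chr17:34153078-34153154 for H2-DMb1, chr17:34145107-34145183 for H2-DMb2, chr17:34092284-34092360 for H2-Oa and chr17:34238796-34238872 for H2-Ob.
H2-Aa: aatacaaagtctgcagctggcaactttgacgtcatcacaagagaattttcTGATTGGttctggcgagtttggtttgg
H2-Eb1: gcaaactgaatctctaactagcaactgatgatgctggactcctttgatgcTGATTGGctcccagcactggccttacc
H2-DMb1: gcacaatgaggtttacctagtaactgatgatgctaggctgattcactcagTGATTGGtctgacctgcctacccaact
H2-DMb2: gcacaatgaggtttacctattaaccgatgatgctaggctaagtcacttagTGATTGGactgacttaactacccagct
H2-Oa: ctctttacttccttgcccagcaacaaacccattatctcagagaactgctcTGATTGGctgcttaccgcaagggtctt
H2-Ob: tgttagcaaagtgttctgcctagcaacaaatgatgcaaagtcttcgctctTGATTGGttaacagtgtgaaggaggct

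The first question was how common these cells were as the nerve matured. Mono/DCs were 12 of 205 Ptprc-positive cells at P0, 14 of 334 at P7, 155 of 1140 at P14, 3 of 573 at P28 and 148 of 1726 at P60. As shares these were 5.85% (exact Clopper-Pearson interval 3.06 to 10.0), 4.19% (2.31 to 6.93), 13.6% (11.7 to 15.7), 0.524% (0.108 to 1.52) and 8.57% (7.30 to 10.0). P14 was highest and P28 lowest, and the intervals of those ages overlapped with no other. Per 100 C1q macrophages the counts of mono/DCs were 11.5, 7.61, 29.8, 0.787 and 11.8 from P0 to P60. The cells of P28 were also the shallowest, and a shallow cell shows fewer markers. Ptprc-positive cells had a median of 3249 UMIs at P28, against 6262.5 at P14 and 7530.5 at P60. The 3 mono/DCs of P28 had a median of 4549, against 13003 in those of P60. When every cell was first thinned to 1000 UMIs, mono/DCs were 13.5% of Ptprc-positive cells at P14, 0.735% at P28 and 8.23% at P60, with 2 cells behind the P28 value. At the 2 earliest ages thinning left 0 of 48 Ptprc-positive cells at P0 and 7 of 97 at P7, too few to place them.

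**Figure D1:**
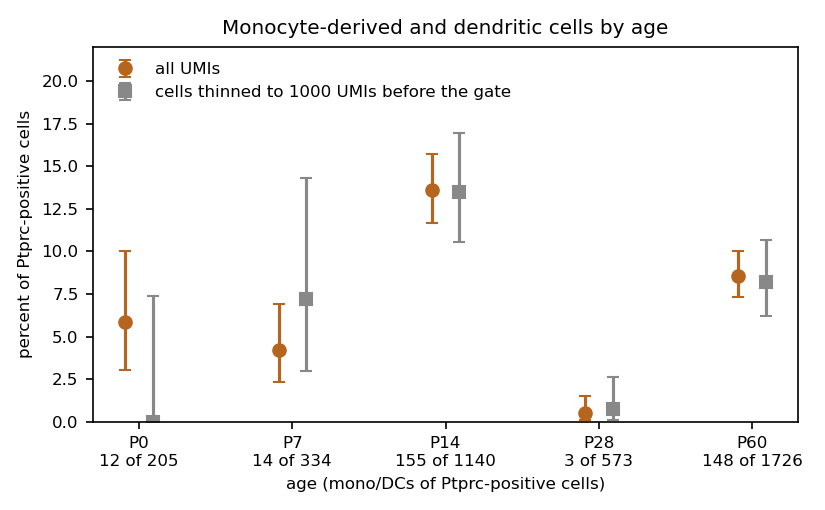
Percent of Ptprc-positive cells that met the mono/DC rule in each library (y axis) against age (x axis, with the counts), with 95% exact Clopper-Pearson intervals. Orange points use all UMIs and grey squares use cells thinned to 1000 UMIs before the rule was applied. P14 stands highest at 13.6% and P28 lowest at 0.524% with all UMIs.

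The rule's own genes were unevenly shared among the 332 cells. Plbd1 was seen in 318, Napsa in 308, Ccr2 in 302, Cd209a in 133 and Flt3 in 108. Exactly 2 markers were seen in 45 mono/DCs, and 129 otherwise eligible cells stood just outside with 1 marker. At P14 the 28 mono/DCs with 2 markers held 3057 CPM of the class II gene H2-Ab1, those with 3 or more held 8325, and the 77 cells with 1 marker held 473. On the C1q side, 97 mono/DCs had 1 C1q gene, and 51 cells with at least 2 markers had 2 C1q genes and counted as macrophages. Another 742 macrophages carried at least 2 of the 5 markers with all 3 C1q genes, so Ccr2 and its companions alone did not separate the classes. Ccr2 stood at 1031 CPM in mono/DCs and 1006 in macrophages at P14, and at 1143 and 617 at P60.

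The levels of all other genes were compared in the same library, mono/DCs over C1q macrophages, at P14 and P60, the ages with at least 20 cells of each class. Summed UMIs of each class in each library entered the model with library as a pairing block (edgeR's quasi-likelihood test, Benjamini-Hochberg adjustment over 11219 genes, adjusted p under 0.05). The fit rests on 2 library pairs, and 1053 genes (9.39%) were higher and 911 (8.12%) lower in mono/DCs. These shares are the background for the counts of every list below. Without the replicate block the counts were 111 and 167, since the age differences then enter the spread. Of the 141 called genes reported here from the lists or by size of change, 51 passed without the block. Among those given below with full values, the ones that did not were Itgax, Clec9a, H2-Ab1, H2-DMa, H2-DMb1, Psmb8, Cd86, Cd83, Itgae, Itga4, Il1b, Il6, Mki67, Sema4d and Plxnb2. Both classes were cut from the same cells by C1q and marker genes, so genes that vary with those genes differ partly through the rule. Splitting each cell's UMIs at random into 2 parts of like size, gating on 1 part and reading levels from the other gave 983 higher and 963 lower of 9284 genes.

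Genes of dendritic cells in general were higher in mono/DCs. Of 10 such genes 9 were higher and 0 lower, against 9.39% and 8.12% of all genes, with a median log2 fold change of 3.49 against -0.03 over all genes. Itgax, the CD11c integrin chain, stood at 139 CPM at P14 and 79.3 at P60 in mono/DCs, against 23.0 and 6.54 in macrophages (log2 fold change 3.23 ± 0.26 SE, adjusted p = 3.94e-05). Zbtb46, a transcription factor of conventional dendritic cells, stood at 21.7 and 22.4 in mono/DCs, against 6.12 at both ages in macrophages (1.99 ± 0.34, adjusted p = 0.00230). Mono/DCs were above macrophages at both ages for both genes, and Relb was the 1 gene of the list that did not pass (log2 fold change 0.12, adjusted p = 0.791).

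Genes of type 1 conventional dendritic cells followed, with 8 of 9 higher, 0 lower and a median of 2.42. Of 5 tested genes of mature dendritic cells 2 were higher, Ccl17 and Socs2. Xcr1, the chemokine receptor that marks type 1 cells, stood at 102 CPM at P14 and 34.4 at P60 in mono/DCs, against 3.67 and 0.738 in macrophages (log2 fold change 5.23 ± 0.32, adjusted p = 1.85e-06). Clec9a, a receptor for dead-cell actin, stood at 110 and 18.9 in mono/DCs against 4.90 and 2.74 in macrophages (3.80 ± 0.42, adjusted p = 0.000828). Irf8 did not pass (0.72 ± 0.56, adjusted p = 0.533): it was higher in mono/DCs at P14, at 567 against 219, and lower at P60, at 159 against 188. Of 7 tested genes of type 2 cells 3 were higher and 1 lower, with a median of 0.52. Those higher were Cd209d, Cbfa2t3 and Ltb, while Sirpa, a receptor that macrophages also carry, was lower. The lectins Clec10a and Mgl2 did not pass, and Mgl2 stood at 402 CPM in mono/DCs against 1685 in macrophages at P60.

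Monocyte genes were also higher. Of 7 tested genes of classical monocytes 6 were higher and 0 lower, with a median of 5.29. Plac8 stood at 357 CPM at P14 and 377 at P60 in mono/DCs, against 0.612 and 2.85 in macrophages (log2 fold change 7.57 ± 0.34, adjusted p = 2.18e-05). Ly6c2, which gives classical monocytes their Ly6C surface antigen, had 140 UMIs over both ages in mono/DCs and 0 in macrophages, at least 183-fold higher when macrophages are given 3 counts over the group. The median of the list was the same with Ly6c2 at that bound. F13a1, the coagulation factor XIII A chain, stood apart from the list at 28.1 and 327 in mono/DCs against 712 and 1179 in macrophages (-2.85 ± 1.17, adjusted p = 0.387). Of 8 tested genes of nonclassical monocytes 6 were higher and 0 lower, among them Ace and Treml4. With P0 and P7 added to the fit, which needs only 10 cells of each class, Ly6c2 no longer passed (adjusted p = 0.0776), and Plac8 passed with all 4 ages (adjusted p = 0.0439) but not without P7 or without P60. Ly6c2 did not pass with DESeq2 either.

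**Figure D2:**
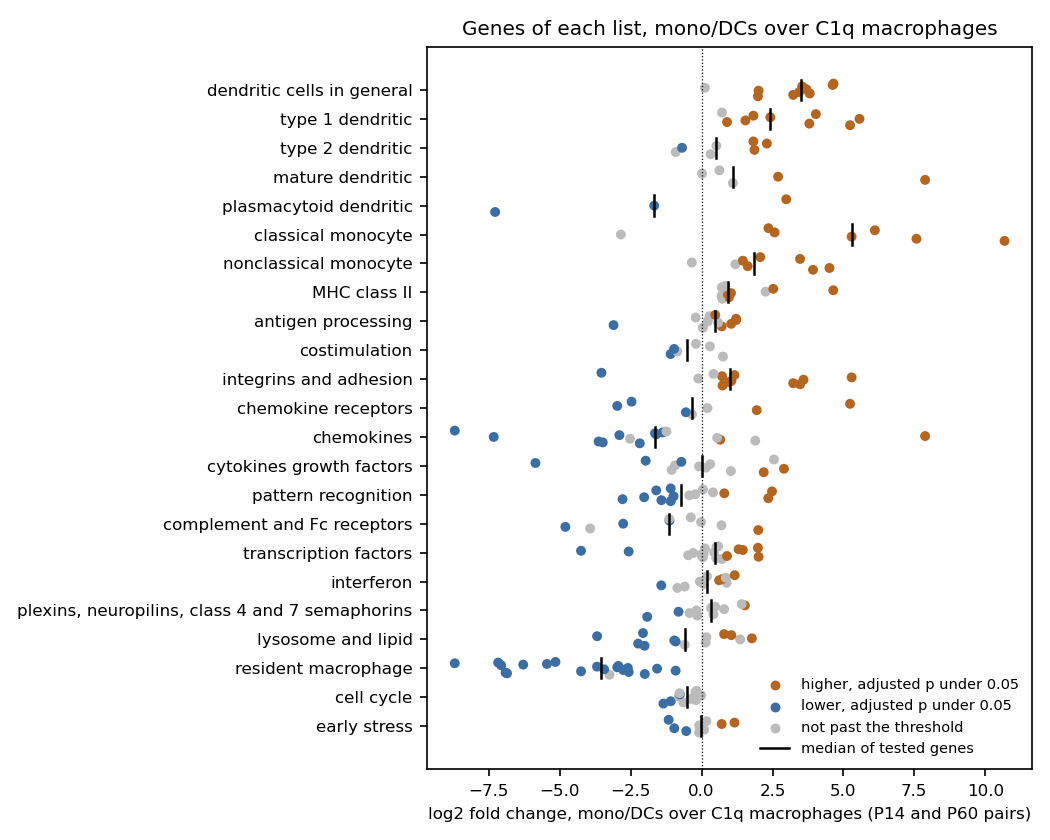
Log2 fold change of mono/DCs over C1q macrophages (x axis) for each tested gene of each list (rows), from the fit of the P14 and P60 library pairs. Orange and blue points passed an adjusted p of 0.05 in the 2 directions, grey points did not, and black bars are medians. The medians of general dendritic, type 1 dendritic and monocyte lists lie right of 0 and that of the resident macrophage list left of it, at -3.56; the point farthest right is Ly6c2, whose fitted value is no bound.

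Resident macrophage genes were lower in mono/DCs in 19 of 20 cases, with 0 higher and a median of -3.56. Pf4, a platelet chemokine that tissue macrophages express, stood at 4.81 CPM at P14 and 7.98 at P60 in mono/DCs against 2270 and 3606 in macrophages (log2 fold change -8.70 ± 0.22, adjusted p = 3.77e-09). Lyve1 and Folr2, which mark perivascular macrophages, were below 4 CPM in mono/DCs at both ages. Mrc1, the mannose receptor, was the exception (-3.24 ± 0.76, adjusted p = 0.180), at 53.8 and 280 in mono/DCs against 1238 and 1563 in macrophages. Csf1r, the receptor for macrophage growth factor, was lower but present, at 189 and 198 in mono/DCs against 1201 and 1393 in macrophages (-2.60 ± 0.15, adjusted p = 1.70e-06).

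The 24 genes named by size of change held several of these and others outside the lists. They were ranked only among called genes with a mean of at least 50 CPM in the higher class. The 12 highest in mono/DCs were Ccl17, Plac8, Xcr1, Jaml, H2-Oa, Klrd1, Cd244a, Dpp4, Clec9a, Upb1, Cd24a and Itgb7, with log2 fold changes between 3.59 and 7.88. Ccl17, a chemokine that draws cells bearing Ccr4, stood at 56.2 CPM at P14 and 58.4 at P60 in mono/DCs, against 0.306 and 0.211 in macrophages (7.88 ± 0.41, adjusted p = 9.19e-07). It rested on few cells: 12 mono/DCs at P14 and 11 at P60 had a UMI of Ccl17, and 3 of them held 87.1% and 90.6% of its UMIs. Klrd1 (CD94), a lectin-like receptor best known from natural killer cells, was spread more widely, over 40 of 155 mono/DCs at P14 and 69 of 148 at P60, at 69.0 and 125 CPM against 2.75 and 6.01 in macrophages. The defining natural killer gene Gzma was at 0 in mono/DCs. Ncr1 was seen at P60 only, at 4.49 CPM, with all 9 of its UMIs in 1 cell. The 7 natural killer and innate lymphoid genes summed to 75.4 CPM at P14 and 43.4 at P60 in mono/DCs, most of it from Il7r. In macrophages the sums were 26.3 and 20.5.

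By the same ranking the 12 lowest in mono/DCs were Cmah, Pf4, Ccl12, Siglech, Ms4a7, Cbr2, Folr2, Lyve1, Mmp9, Stab1, Tmem37 and Igf1. Cmah, the enzyme that makes N-glycolylneuraminic acid, had 0 UMIs in mono/DCs of P14 and P60 and 1039 in macrophages, at least 88.3-fold lower when mono/DCs are given 3 counts over the group. Its call was lost with DESeq2. Igf1, a growth factor for neurons and glia, stood at 4.01 CPM at P14 and 0.499 at P60 in mono/DCs, against 131 and 115 in macrophages (log2 fold change -5.86 ± 0.42, adjusted p = 4.08e-05). Siglech, a plasmacytoid dendritic and microglial lectin, had 1 UMI in mono/DCs at P14 and 0 at P60, and of the other plasmacytoid genes Klk1, Cox6a2 and Ly6d were at 0 in mono/DCs at every age. Of 3 tested plasmacytoid genes, Siglech and Tcf4 were lower and Spib higher. Siglech and Mmp9 did not pass without the replicate block.

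Class II genes were divided. Of 10 genes 5 were higher in mono/DCs and 0 lower, against 9.39% and 8.12% of all genes, with a median log2 fold change of 0.95. H2-Oa, a chain of the H2-O modulator of peptide loading, stood at 61.8 CPM at P14 and 58.9 at P60 in mono/DCs, against 4.29 and 1.79 in macrophages (4.64 ± 0.33, adjusted p = 7.97e-06). Its partner H2-Ob was also higher (2.53 ± 0.25, adjusted p = 6.49e-05), as were the H2-DM chains H2-DMa (0.93 ± 0.14, adjusted p = 0.00106) and H2-DMb1 (1.04 ± 0.14, adjusted p = 0.000566), which catalyse loading. Of the surface chains H2-Ab1 passed (0.96 ± 0.22, adjusted p = 0.0223), whereas H2-Aa (adjusted p = 0.080), H2-Eb1 (adjusted p = 0.111) and the invariant chain Cd74 (adjusted p = 0.0738) did not. With P0 and P7 in the fit, only H2-Oa and H2-Ob of the 10 passed. Of the 6 genes whose Y box windows are printed above, H2-DMb1, H2-Oa and H2-Ob passed and H2-Aa, H2-Eb1 and H2-DMb2 did not. H2-DMa, without those letters in its windows, passed.

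The surface chains are given by age as values, and a trend with age was not tested. H2-Aa stood at 4860, 9063, 6851 and 9589 CPM in mono/DCs at P0, P7, P14 and P60, against 152, 478, 3360 and 8691 in macrophages. The levels of mono/DCs lay above those of macrophages at all 4 ages, and the ratio of mono/DCs to macrophages was 32.0 (26.6 to 38.8), 19.0 (17.2 to 21.0), 2.04 (1.98 to 2.10) and 1.10 (1.09 to 1.12). H2-Ab1 gave ratios of 39.4, 23.5, 2.35 and 1.33 at the same ages, and Cd74 of 17.3, 14, 2.00 and 1.10. H2-Oa kept a wide gap, with ratios of 18.1 (7.71 to 44.6), 14.1 (4.48 to 48.1), 14.4 (8.09 to 27.6) and 32.8 (19.7 to 58.3). In Schwann cells, taken as Sox10-positive cells without Ptprc, H2-Aa stood at 0.227, 1.03, 17.5 and 83.0 at these ages. At P0, 7 of 12 mono/DCs had a UMI of H2-Aa and 3 of them held 61.1% of its UMIs, whereas at P7 all 14 had one, and the 3 mono/DCs of P28 held 4811 against 6497 in macrophages.

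**Figure D3:**
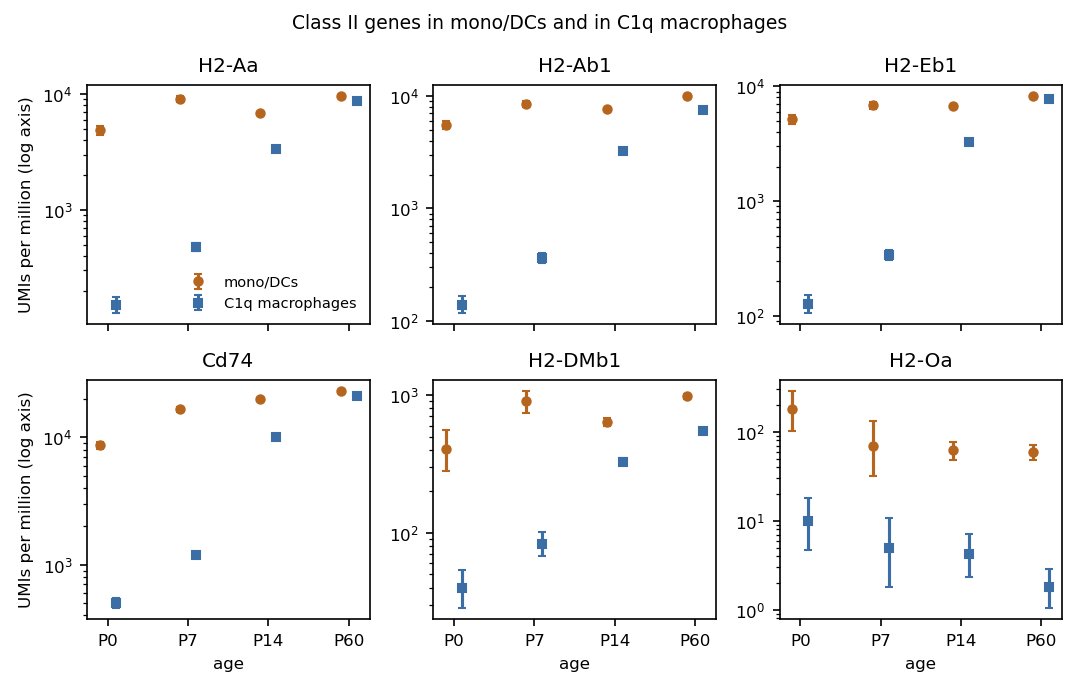
CPM (log y axis) of 6 class II genes in mono/DCs (orange) and C1q macrophages (blue) at P0, P7, P14 and P60 (x axis), with 95% exact Poisson intervals for counting error. For H2-Aa the ratio of mono/DCs to macrophages was 32.0 at P0 and 1.10 at P60, whereas for H2-Oa it was 18.1 and 32.8.

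Antigen-processing and costimulatory genes followed, again set against 9.39% of all genes higher and 8.12% lower. Of 11 antigen-processing genes 5 were higher and 1 lower: the immunoproteasome subunits Psmb8 and Psmb9, the peptide transporter Tap1, the reductase Ifi30 and the class I chain H2-D1 were higher. Psmb8 stood at 558 CPM at P14 and 421 at P60 in mono/DCs against 227 and 231 in macrophages (log2 fold change 1.22 ± 0.16, adjusted p = 0.000484). The protease Lgmn was lower (-3.10 ± 0.21, adjusted p = 2.86e-05). Of 6 tested costimulatory genes none was higher and 2 were lower, Cd86 (-1.09 ± 0.25, adjusted p = 0.0242) and Cd83 (-0.97 ± 0.17, adjusted p = 0.00287).

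Adhesion genes were higher in 9 of 12 cases and lower in 1, Itgb5, against 9.39% and 8.12% of all genes, with a median of 1.01. Itgb7, the beta 7 integrin chain that pairs with Itga4 or Itgae, stood at 233 CPM at P14 and 177 at P60 in mono/DCs against 32.1 and 10.8 in macrophages (log2 fold change 3.59 ± 0.28, adjusted p = 0.000353). Both partners were also higher, Itgae at 5.57 ± 0.57 (adjusted p = 0.000155) and Itga4 at 1.05 ± 0.20 (adjusted p = 0.00979).

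Secreted and sensing genes are given against the 9.39% of all genes higher and 8.12% lower. Of 15 tested chemokines 2 were higher in mono/DCs, Ccl17 and Ccl6, and 9 were lower, among them Ccl2, Ccl3, Ccl4, Ccl12 and Cxcl2. Of 14 pattern receptors 3 were higher, Tlr11, Clec4b1 and Clec4e, and 7 lower, among them Tlr2, Tlr4 and Tlr7. Of 12 tested cytokines and growth factors 2 were higher and 3 lower. Il1b stood at 24.9 CPM at P14 and 229 at P60 in mono/DCs against 3.98 and 61.5 in macrophages (log2 fold change 2.19 ± 0.22, adjusted p = 7.84e-05), and Il6 was also higher (2.90 ± 0.39, adjusted p = 0.000484). Igf1, Pdgfb and Hbegf were lower. Of 9 tested complement and Fc receptor genes 1 was higher, C3, and 3 were lower. Of 7 tested chemokine receptors 2 were higher, Xcr1 and Cxcr3, and 3 lower, among them Cx3cr1 and Cmklr1.

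The next lists are also set against 9.39% of all genes higher and 8.12% lower, and some counts lie near those shares. Of 18 transcription factors 5 were higher, namely Id2, Batf3, Nr4a1, Runx3 and Zbtb46, and 2 were lower, among them Maf, which specifies macrophages. Spi1, which all these cells need, stood at 408 CPM at P14 and 362 at P60 in mono/DCs against 434 and 392 in macrophages (log2 fold change 0.04 ± 0.14, adjusted p = 0.886). Of 11 interferon-response genes 3 were higher and 1 lower, of 13 tested lysosome and lipid genes 3 were higher and 6 lower, and of 12 cell-cycle genes none was higher and 3 lower, with Mki67 at -1.35 ± 0.22 (adjusted p = 0.00247). The study concerns a semaphorin, so receptors and membrane semaphorins were listed too. Of 11 tested, Sema4d was higher (1.52 ± 0.20, adjusted p = 0.000433) and Nrp1 (-1.92 ± 0.16, adjusted p = 2.35e-05) and Plxnb2 (-0.81 ± 0.20, adjusted p = 0.0231) were lower.

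The mono/DCs were a mixture, and were split into 3 groups by genes chosen after their values were seen, so the groups carry no test. The third group is a remainder, the cells in which none of Xcr1, Clec9a and Cd209a was seen. Xcr1 or Clec9a was seen in 2, 7, 39, 1 and 22 mono/DCs from P0 to P60, which at P14 and P60 is 25.2% and 14.9% of them. Cd209a was seen in 2, 5, 46, 0 and 80, which is 29.7% and 54.1% at P14 and P60. Of the cells with Xcr1 or Clec9a, 1 of 39 at P14 but 10 of 22 at P60 also held Cd209a. The 2 sets of genes were thus less separate at P60. In Schwann cells Clec9a was seen in 0.0903% at P14 and 0.103% at P60 and Cd209a in 0.181% and 0.619%, at median depths of 5031 and 3974.5 UMIs against 7789 and 13003 in mono/DCs.

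Cells with Xcr1 or Clec9a and no Cd209a, 38 at P14 and 12 at P60, held other genes of type 1 cells, with Batf3 as an exception. Irf8 stood there at 2243 CPM at P14 and 1608 at P60, against 2.76 and 10.3 in the 45 and 70 cells with Cd209a alone. Tlr3 stood at 316 and 279, against 8.28 and 0 in the Cd209a cells. Itgae, the integrin CD103, stood at 262 and 106 there and had 0 UMIs in the Cd209a cells at both ages. Clec10a and Sirpa had 0 UMIs in the Xcr1 or Clec9a cells at both ages. Itgam was seen in 0 of the 38 cells at P14 and 1 of the 12 at P60. Batf3 was lowest in the Xcr1 or Clec9a cells, at 197 CPM at P14 and 162 at P60. It stood at 229 and 188 in the Cd209a cells, and at 293 and 251 in cells without Xcr1, Clec9a or Cd209a.

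Cells with Cd209a alone held the lectins of type 2 cells. Clec10a stood there at 397 CPM at P14 and 491 at P60 and Mgl2 at 657 and 548. Irf4, which type 2 cells use, stood at 116 and 113, against 0 and 27.9 in the Xcr1 or Clec9a cells. H2-Ab1 was high in both kinds, at 11030 and 11250 in the Cd209a cells and 9554 and 12440 in the Xcr1 or Clec9a cells. Sirpa, also on the type 2 list, did not peak in the Cd209a cells. It stood at 154.5 and 191.8 there, against 277.8 and 287.7 in cells without Xcr1, Clec9a or Cd209a. Itgam likewise stood at 367 and 280 in the Cd209a cells, against 439 and 489 in those cells. Flt3 stood at 41.4 and 64.6 in the Cd209a cells, against 180 and 173 in the Xcr1 or Clec9a cells. In the same order Zbtb46 stood at 22.1 and 20.5 against 51.05 and 83.7, and Itgax at 199 and 88.2 against 143 and 44.7. Csf1r stood at 108 and 136 against 6.81 and 5.58. Whether the Cd209a cells arose from monocytes was not tested.

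The 71 cells at P14 and 56 at P60 with neither include the 3 cells with Ccr7 at P14. They were mixed: Clec10a was seen in 23 and 23 of them and Irf8 in 19 and 10. Their summed levels therefore do not describe 1 kind of cell. Plac8 stood at 703 and 904 CPM there, from 23 and 16 cells, against 46.9 and 91.3 in the Cd209a cells and 61.3 and 33.5 in the Xcr1 or Clec9a cells. Csf1r stood at 331 and 360, and H2-Ab1 was lower than in the other kinds, at 4391 and 6497. Lyz2, the macrophage lysozyme, stood at 11810 and 15130. Retnla, a secreted resistin-like protein, stood at 15730 and 18760 there but came from 37 of 71 and 41 of 56 cells. Retnla stood at 7679 and 10080 in all mono/DCs against 9344 and 5921 in C1q macrophages, and it had 0 UMIs in mono/DCs at P0.

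**Figure D4:**
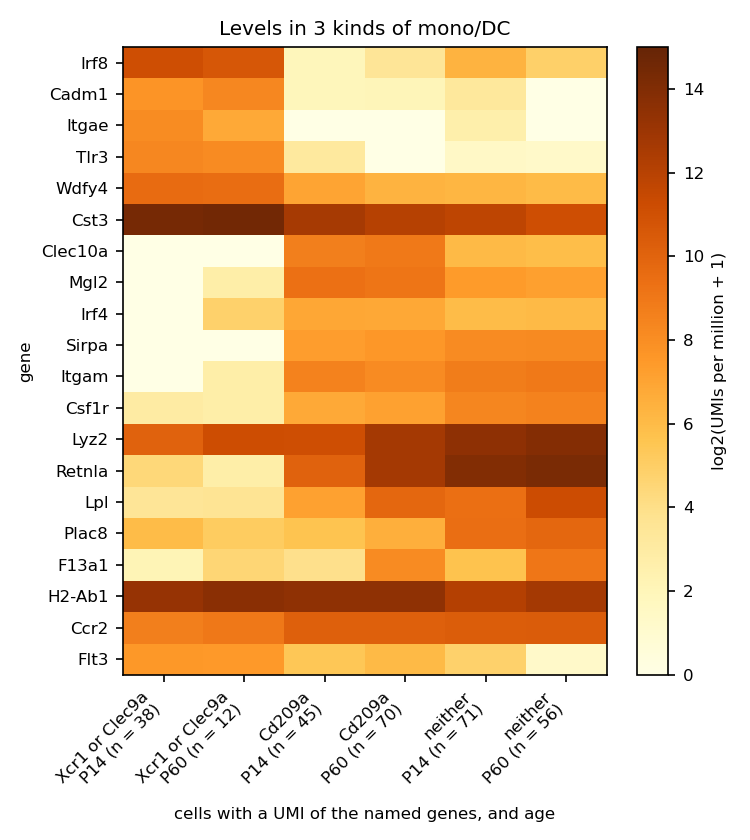
Levels as log2(CPM + 1), by colour, of 20 genes (rows) in mono/DCs with Xcr1 or Clec9a, with Cd209a, or with neither, at P14 and P60 (columns, with the number of cells). Cells with both kinds of gene are left out, and the genes were chosen after their values were seen. Irf8, Tlr3 and Itgae are highest in the first group, Clec10a and Mgl2 in the second, and Retnla and Plac8 in the third, which is a mixed remainder.

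Shares of cells with 2 or more genes of a list, after thinning to 1000 UMIs, described the mixture with whole lists. The type 1 list reached 2 genes in 8.78% of mono/DCs at P60 (exact interval 4.76 to 14.5) and 23.4% at P14 (16.9 to 30.9), against 3.92% and 3.88% of macrophages. Without thinning the P60 and P14 shares of mono/DCs were 66.2% and 60%, against 52.2% and 44.6% of macrophages, which hold Irf8, Wdfy4 and Batf3 too. The classical monocyte list reached 2 genes in 10.8% (6.31 to 17.0) and 7.79% (4.09 to 13.2) of mono/DCs, against 1.12% and 1.16% of macrophages, and its intervals at the 2 ages overlapped. The type 2 list reached 2 genes in 30.4% and 21.4% of mono/DCs but also in 40.2% and 19.4% of macrophages. Schwann cells reached 2 genes in 1.19% and 1.39% for the type 1 list and in under 0.3% for the other 2 lists at these ages.

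Between the 2 ages with enough mono/DCs, P60 and P14, genes were ranked by the ratio of CPM. Of 6606 genes with at least 50 UMIs in mono/DCs, 228 (3.45%) were at least 2-fold higher and 318 (4.81%) at least 2-fold lower at P60, with a median log2 ratio of -0.16. These are counts of values past a fold, not calls, and the P60 cells were deeper. The 10 genes highest at P60 were Chil3, Areg, Hspa1b, Il6, Lyz1, Hspa1a, Ccl7, Ephx1, Cxcl2 and F13a1. Chil3, a chitinase-like protein of monocytes and neutrophils, stood at 118 CPM at P60 and 0.802 at P14 (ratio 147, 26.1 to 5820), from 12 of 148 and 1 of 155 mono/DCs. At P60 3 cells held 159 of the 236 UMIs of Chil3. The top 3 cells likewise held 72.4% of the UMIs of Areg and 72.5% of those of Ccl7. The intervals do not cover such differences between cells. Lyz1 stood at 2978 and 131 (ratio 22.8, 19.5 to 26.8), in 67 and 18 cells, and its reads could be split with its near copy Lyz2. At P14 3 cells held 123 of its 163 UMIs, and with P14 cells limited to those with a Y-linked UMI and no Xist the log2 ratio of Lyz1 was 5.65 against 4.51. F13a1 stood at 327 and 28.1 (ratio 11.6, 8.28 to 16.9) in 83 and 14 cells, while in macrophages its ratio was 1.66. Ephx1, an epoxide hydrolase, stood at 45.4 and 3.21 (ratio 14.1, 5.34 to 53.0) in 47 and 4 cells, with a ratio of 2.58 in macrophages.

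Hspa1a and Hspa1b belong to a list of early-response and heat-shock genes known to respond to tissue dissociation. Of its 10 genes 8 were at least 2-fold higher at P60 in mono/DCs and none 2-fold lower, against 3.45% and 4.81% of all ranked genes. The median log2 ratio was 1.98 against -0.16 over all genes. Hspa1b stood at 404 CPM at P60 and 13.6 at P14 (ratio 29.6, 18.4 to 51.1), with a ratio of 12.3 in macrophages. Atf3 stood at 834 and 138 (ratio 6.05, 5.17 to 7.12), with a ratio of 5.45 in macrophages. Outside that list, Il6 stood at 56.9 and 0.802 in mono/DCs, from 27 and 1 cells, and at 8.33 and 0 in macrophages. Cxcl2 stood at 352 and 27.3 in mono/DCs, and its ratio of 12.9 compares with 10.1 in macrophages. Hspa1a and Hspa1b are near copies whose reads could be split, and the part of dissociation in these values was not tested.

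The 10 genes lowest at P60 were Xist, Ccl22, Ccl5, Hbb-bs, Fscn1, Ccr7, Igf2bp3, Il4i1, Egfl7 and Aatk. Ccr7, the receptor that guides mature dendritic cells to lymph nodes, had 59 UMIs in 3 of 155 mono/DCs at P14 and 0 in 148 at P60. Those 3 cells also held 144 of the 151 UMIs of Ccl22, 70 of the 73 of Fscn1, 46 of the 49 of Il4i1 and 76 of the 90 of Ccl5 at P14. Ccl22 stood at 2.49 CPM at P60 and 121 at P14, Fscn1 at 0.998 and 58.6. Of 6 mature dendritic genes with enough UMIs 5 were at least 2-fold lower at P60, against 4.81% of all ranked genes. That count rests on these 3 cells for Ccr7, Ccl22, Fscn1 and Il4i1. With at least 3 of the 5 markers required, the log2 ratios of Ccl22 and Ccr7 were both -0.82 and that of Fscn1 -1.23. Counts under 3 were set to 3 for these ratios. The value -0.82 is then the ratio of the summed UMIs of the 2 ages, so it measures no fall of Ccl22 or Ccr7. Fscn1 had 2 UMIs at P60 under the main rule, so its ratio uses that floor too. The counts of Il4i1 may include reads of Nup62, which overlaps it.

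Igf2bp3, an RNA-binding protein of fetal tissue, was spread over more cells. It stood at 0.998 CPM at P60 and 45.7 at P14, in 2 and 46 mono/DCs (ratio 0.0218, 0.00258 to 0.0825), and in macrophages its ratio was 0.195. Aatk, a kinase named for apoptosis of myeloid precursors, stood at 2.99 and 50.6 in 5 and 52 cells, with a ratio of 0.0948 in macrophages, and was seen in 79.8% and 81.2% of Schwann cells. Hbb-bs, a haemoglobin chain, was seen in 2 and 68 mono/DCs and in 2.89% and 43.7% of Schwann cells, which do not make it. Egfl7, known from endothelium, was seen in 4 and 44 mono/DCs and in 5.77% and 39.8% of Schwann cells, and the endothelial list summed to 13.97 and 62.6 CPM in mono/DCs and 6.01 and 60 in macrophages. The part of free RNA in these values was not tested.

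**Figure D5:**
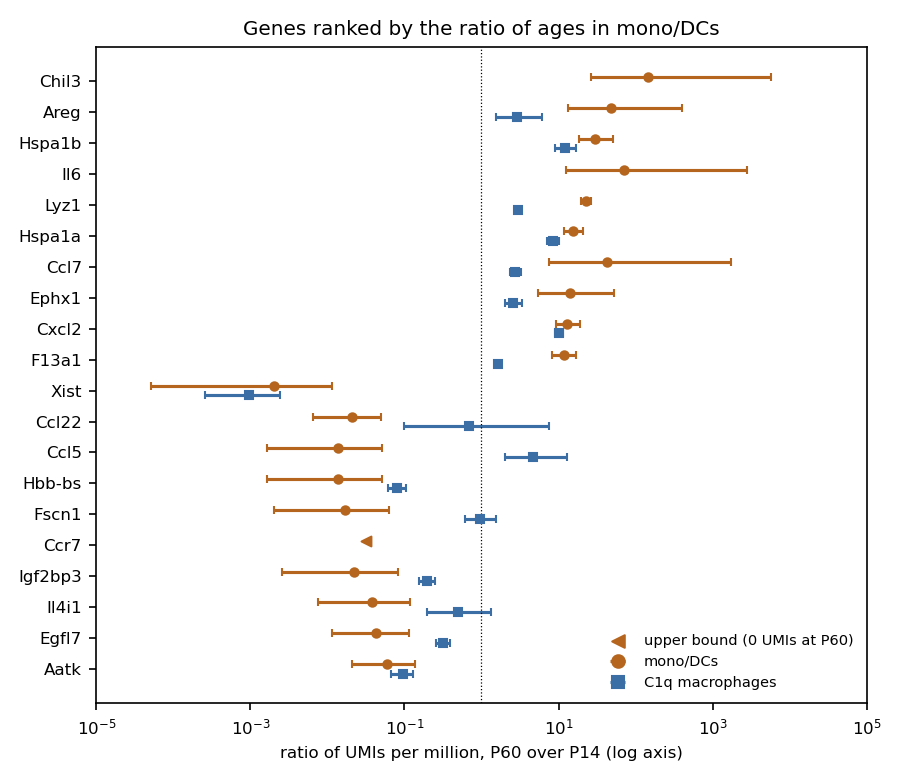
Ratio of CPM at P60 over P14 (log x axis) for the 10 genes highest and the 10 lowest at P60 in mono/DCs (rows), with 95% exact intervals for counting error, in mono/DCs (orange) and C1q macrophages (blue). Genes with a 0 in either library of macrophages have no blue point, and Ccr7 is drawn at its upper bound. Hspa1b and Cxcl2 lie right of 1 in both classes, Ccl5 lies left in mono/DCs and right in macrophages.

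Type 1 genes stood lower at P60 as a group: 6 of 9 were at least 2-fold lower and none 2-fold higher, with a median log2 ratio of -1.57. Over all ranked genes 4.81% were at least 2-fold lower and 3.45% at least 2-fold higher. Clec9a stood at 18.9 CPM at P60 and 110 at P14 (ratio 0.172, 0.117 to 0.249), Itgae at 9.48 and 64.2, Tlr3 at 25.4 and 77.8, and Irf8 at 159 and 567. Within cells with Xcr1 or Clec9a and no Cd209a, 12 at P60 and 38 at P14, Irf8 was at 1608 and 2243. Of 6 classical monocyte genes 4 were at least 2-fold higher at P60, against 3.45% of all ranked genes: Chil3, F13a1, Ms4a4c and Ly6c2. Ms4a4c stood at 115 and 24.1 (ratio 4.77, 3.25 to 7.23), whereas Plac8 stood at 377 and 357 (ratio 1.05, 0.937 to 1.19). Lpl, a lipase that monocyte-derived macrophages secrete, stood at 1323 and 361 (ratio 3.67, 3.31 to 4.06), against a ratio of 0.744 in macrophages.

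The mono/DCs of the first week were few. At P0, 10 of 12 held Plac8, at 1534 CPM, and Ly6c2 and Hp, an acute-phase protein that granulocytic and monocytic cells also make, stood at 370 and 515. S100a8, a neutrophil and monocyte gene, stood at 761, but 50 of its 68 UMIs were in 1 cell. The neutrophil genes Ly6g, Camp, Ngp and Retnlg were at 0. At P7 Clec9a was seen in 7 of 14 cells at 192 CPM and Cd209a in 5 at 407, while Ly6c2, Hp and F13a1 had 0 UMIs. The summed Schwann list stood at 1299, 15460, 332 and 157 CPM in mono/DCs at P0, P7, P14 and P60, against 1101, 4018, 478 and 329 in macrophages, and its part in the results was not tested. Erythroid, mast cell, T cell and B cell lists summed to at most 235 CPM in mono/DCs at any age, and Ms4a1 and Igkc were at 0 in them. That highest sum was erythroid, at P0. The T cell list summed to 28.9 CPM in mono/DCs at P14 against 5.51 in macrophages, with 20 UMIs of Trbc2 in 5 cells. At P7 it was 0 against 19.6. Whether a few lymphoid cells met the rule was not tested. In the class comparison of these lists Mbp and Il7r were higher in mono/DCs, Pmp22, Dcn, Cd79b and Ighm were lower, and the other 16 tested genes did not pass.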

How the data were processed

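The authors deposited 1 matrix of raw UMI counts per library, made with Cell Ranger 5.0.1 (7.0.0 for P7) per the file headers; the submitters' processing notes also name Seurat and mm9. The annotation release was not given in the sources used here. Per the labels' protocols, nerves were digested with collagenase and papain at 37°C before red cell lysis and dead cell removal. The 5 libraries were mapped to ages by their labels, and genes were matched by Ensembl ID over 52081 shared genes, which held 96.1% to 99.4% of the UMIs. Barcodes with at least 500 UMIs, 300 genes and at most 20% mitochondrial UMIs were kept. Scrublet (in scanpy 1.11.5) marked 4 mono/DCs and 38 C1q macrophages as doublets, which were kept. At P0 its own threshold marked 0%, so the top 8% of scores were marked there.

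The summed counts of each class went into edgeR 4.0.16 under R 4.3.3 (TMM, filterByExpr, robust quasi-likelihood test, two-sided, Benjamini-Hochberg adjustment), with the library as a block because both classes come from the same pooled animals. The fit has 1 residual degree of freedom before moderation. The script was tested on simulated counts. CPM were computed as the UMIs of a gene over all UMIs of a class in a library. Shares have exact Clopper-Pearson intervals and ratios exact conditional intervals (scipy 1.17.1), and a 0 was given 3 counts for a bound. Alternatives were DESeq2 1.42.0, no filter, no block, 10 cells per class, other gates, doublets left out and P14 cells with a Y-linked UMI and no Xist. The last, and leaving out each library, were chosen after seeing the data.

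Named genes were the 12 largest changes each way among called genes with a mean of at least 50 CPM in the higher class, the 10 highest and 10 lowest at P60 among genes with at least 50 UMIs, and the members of 32 gene lists. A few list members are not reported here; they stay in the counts and medians of their lists. Lyz2 and Retnla were chosen after their values were seen. The cells, the lists and the tests were chosen with earlier results of these data known. Antisense, overlapping and near-copy genes (Hspa1a and Hspa1b, Lyz1 and Lyz2, the Clec4a family) are uncertain, since how shared reads were counted was not given in the sources used here. Pooled animals of 1 library are not replicates. With the library as a block, the spread behind the p-values is how far the class difference varied between the libraries fitted. Moderation draws each gene's spread towards that of the other genes, so a p-value does not rest on that gene alone. Each fitted library was a different age, so this spread holds differences of class by age and is not a spread between replicates.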

Additional observations from a re-analysis of the deposited data

Results flagged for a closer look

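For 3 genes the P60 and P14 levels lay in opposite directions in mono/DCs and in C1q macrophages, with both ratios at least 1.5-fold and both counting intervals clear of 1. With 1 library per age the difference between the classes was not tested. Apoe, the lipid carrier of macrophages, stood at 362 CPM at P60 and 618 at P14 in mono/DCs, a ratio of 0.585 (0.528 to 0.649), whereas in macrophages its ratio was 1.58 (1.56 to 1.59). Ccl5, a chemokine of T cells and mature dendritic cells, had a ratio of 0.0138 (0.00165 to 0.0514) in mono/DCs and 4.65 (2.05 to 13.04) in macrophages. Its 90 UMIs in mono/DCs at P14 came from 7 cells, with 58 in 1 cell. Cxcl16, the membrane-bound ligand of Cxcr6, stood at 31.4 CPM at P60 and 58.6 at P14 in mono/DCs, a ratio of 0.5365 (0.377 to 0.762), and in macrophages its ratio was 1.525 (1.34 to 1.74). Cxcl16 was seen in 33 of 148 mono/DCs at P60 and 35 of 155 at P14, but 18 of its 73 UMIs at P14 were in the 3 cells with Ccr7. Without those 3 cells, an alternative chosen after seeing the data, the ratio in mono/DCs was 0.697 for Cxcl16, short of 1.5-fold, 0.0869 for Ccl5 and 0.573 for Apoe.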

How the results depend on the processing

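The counts of genes higher and lower in mono/DCs were 111 and 167 without the replicate block and 439 and 356 with DESeq2, against 1053 and 911. Leaving out 1 of the 2 libraries leaves no residual degree of freedom, so each library was left out of the fit of the 4 ages with 10 cells per class: 442 to 973 genes were then higher and 556 to 1068 lower, with 442 and 556 without P60, 510 and 691 without P14, 973 and 1068 without P7 and 910 and 891 without P0. Of 1932 values for the 141 called genes reported here, 1679 kept direction and call, 253 lost the call and 0 reversed. Fitting without the block lost 90 of these calls and removing the filter 0.

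Mono/DCs of Ptprc-positive cells were 0% at P0 and 7.216% at P7 after thinning, 11.1% at P14 with 3 markers required, and 9.47% at P14 and 5.97% at P60 with no C1q gene allowed. With the median log2 ratio of -0.16 removed, 196 genes in place of 318 were at least 2-fold lower at P60. At P60 and P14, the type 1 list reached 2 genes in 66.2% and 60% of unthinned mono/DCs and 3 genes in 4.73% and 16.9%. The type 2 list gave 89.9% and 63.9% unthinned and 6.76% and 7.14% with 3 genes, and the classical monocyte list 27.0% and 15.5% unthinned and 4.73% and 2.60% with 3 genes. Of 80 values for the 20 genes named between ages, 65 stayed within the counting interval, 15 moved outside it and 0 reversed; 9 of the 15 were with P14 cells limited to those with a Y-linked UMI and no Xist and 6 with 3 markers required. The number of cells limits P0, P7 and P28 most, with 12, 14 and 3 mono/DCs, and P28 was also the shallowest.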

Other observations

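Mono/DCs with UMIs of both Cd209a and either Xcr1 or Clec9a numbered 1 of 155 at P14 and 10 of 148 at P60, and 0 at P0, P7 and P28. Ccl22 was also concentrated at P7, where its 20 UMIs came from 1 of 14 mono/DCs, and 32 of the 33 UMIs of Ccl17 at P7 were in 1 cell. The 3 mono/DCs of P28 held Clec9a in 1 cell and Plac8 in 1 cell, and none held Cd209a.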
